A study of Mus musculus with 2 samples.

Results

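Mitotic-gated LSK cells are here the cells, sorted as stem and progenitor cells of mouse bone marrow, in which the mRNAs of late G2 and mitosis were detected. These cells were chosen by the measured counts of 7 genes. A cell was counted as mitotic-gated when, after thinning to 2000 unique molecular identifiers (UMIs, each standing for 1 captured mRNA molecule), it held at least 1 UMI of at least 3 of these gate genes, Ube2c, Cdc20, Ccnb1, Cenpf, Hmmr, Cenpa and Prc1. Barcodes entered with more than 200 genes, under 10% mitochondrial UMIs and at least 2000 UMIs. In all, 2741 of 17712 such cells were mitotic-gated, 1475 of 8610 in the WT library and 1266 of 9102 in the cKO library. The 2 libraries were unlike in the cell type markers detected. At 2000 UMIs, at least 3 granulocyte-monocyte progenitor (GMP) markers were detected in 47.5% of the WT and 3.48% of the cKO mitotic-gated cells. The part of free RNA, not from the cell itself, in this detection was not tested. The gate is a range cut from measured counts and not a cell type, so the levels of the gate genes, the number of cells it holds and every difference between these cells and the rest of their library are given as descriptions.

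The study asked how loss of Trmt6, a subunit of the tRNA m1A methyltransferase, changes haematopoietic stem and progenitor cells (HSPCs). Lin- Sca-1+ c-Kit+ (LSK) cells from the bone marrow of mice 3 months old were sorted after lineage depletion and profiled by 10x Genomics 3′ sequencing, 1 library per genotype, with 4000 cells per sample as the target. By the labels, Trmt6 WT cells came from Trmt6fl/fl mice and Trmt6 cKO cells from Trmt6fl/fl, MX1-cre mice, whereas the study describes Mx1-Cre in both genotypes, Trmt6+/+ and Trmt6fl/fl, and polyI:C injections to delete the gene. Mx1-Cre is switched on by interferon and acts in marrow and in other tissues, and the number of mice pooled per library is not given in the sources used here. Genotype and library cannot be told apart, no difference below has a replicate check, and the 95% intervals given cover the error of counting and not the spread between animals or cells.

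Cells enter mitosis when cyclin B and CDK1 become active, after which the chromosomes condense, the spindle attaches to the kinetochores, the anaphase-promoting complex (APC/C) removes securin and the cyclins, and the cell divides. The mRNAs for this machinery accumulate together in G2, and many of their promoters carry a CHR element (cell cycle genes homology region), the site bound by the MuvB complexes with B-MYB and FOXM1, beside CCAAT boxes bound by NF-Y. Genes for DNA replication are on the contrary induced at the G1/S border, largely through E2F sites. In the marrow, most long-term stem cells rest in G0, and the downstream progenitors divide often.

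Short promoter windows that held this element are shown for 6 gate genes and for 3 mitotic regulators outside the gate. Each is read 5′ to 3′ on the strand of the gene, from RefSeq promoters of build GRCm38.p6 that reach from 250 bases before to 50 after the annotated start, and capitals mark the CHR letters TTTGAA or, for a match on the opposite strand, TTCAAA.
Ube2c (chr2:164769888-164769917, plus strand): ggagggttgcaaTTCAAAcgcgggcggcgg
Cdc20 (chr4:118437344-118437373, minus strand): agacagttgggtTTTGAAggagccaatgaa
Cenpf (chr1:189688067-189688096, minus strand): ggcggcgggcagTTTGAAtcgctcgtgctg
Hmmr (chr11:40733412-40733441, minus strand): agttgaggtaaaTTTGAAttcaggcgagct
Cenpa (chr5:30666890-30666919, plus strand): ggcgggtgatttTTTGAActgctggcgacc
Prc1 (chr7:80294434-80294463, plus strand): cctctggctcggTTTGAAttccgcggggtc
Plk1 (chr7:122159453-122159482, plus strand): cccagcgccgcgTTTGAAttcggggaggag
Aurka (chr2:172370521-172370550, minus strand): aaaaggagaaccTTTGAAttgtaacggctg
Ccnb2 (chr9:70421533-70421562, minus strand): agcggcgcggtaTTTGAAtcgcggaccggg
Ccnb1 had no such match in its window, and Ccnb2 had 2, of which the match next to the start is shown. Among other genes with the highest ratios over other cells, Nusap1, Sapcd2 and Knstrn also had no match. Cdkn3, Aspm, Kif2c and Kpna2, not shown, had 1 each. Among the gate genes, 6 of 7 held TTTGAA or TTCAAA and all 7 held CCAAT or ATTGG. A promoter was matched for 60 of the 75 genes outside the gate that were at least 2-fold higher in mitotic-gated cells of both libraries, and 36 of these (60%) held the CHR letters, against 15.7% of the 2523 matched genes measured at 50 CPM or more and 20.2% of all 27025 promoters. The CCAAT letters were present in 68.3% of the 60, in 44.7% of the measured genes and in 41.1% of all promoters, and 50%, 8.28% and 8.97% held both. Of the 10 genes at least 2-fold lower in both libraries, 1 held the CHR letters and 5 held the E2F letters TTCCCGC or GCGGGAA, which stood in 3.33% of the 60 higher genes, 11.3% of the measured genes and 5.29% of all promoters. These are matches of letters on either strand and not measured binding. Overlaps between motifs were not removed.

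The WT library held 8869 barcodes with 47991455 UMIs and the cKO library 9260 barcodes with 98323201 UMIs, and 24 barcodes occurred in both, 4 of them among the mitotic-gated cells of each library. A further 205 WT and 114 cKO barcodes met the other limits but had fewer than 2000 UMIs. Likely doublets, scored against simulated pairs of cells, were kept, and they made up 9.63% (8.17 to 11.2) of mitotic-gated and 6.70% (6.13 to 7.30) of other WT cells, and 9.48% (7.92 to 11.2) and 7.13% (6.57 to 7.73) in cKO. Their part in the gate was not tested beyond leaving them out, which changed no share by more than its counting interval.

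Mitotic-gated cells were 17.1% (16.3 to 17.9) of WT and 13.9% (13.2 to 14.6) of cKO cells, a difference of -3.22 percentage points (-4.29 to -2.16). Within the gate, the cKO cells sat closer to its lower edge. Exactly 3 gate genes were detected in 36.7% of the WT and 42.8% of the cKO mitotic-gated cells, and 5 or more in 32.4% and 24.96%. Just outside the gate, 717 WT and 774 cKO cells had 2 gate genes, and just inside it 542 cells in each library had 3. The shares rest on the thinning. With all UMIs of each cell, at unequal depth, they were 31.1% in WT and 38.1% in cKO, the opposite order. At 3000 UMIs, which left out 1896 WT but 76 cKO cells, they were 27.7% and 19.0%. Single cells also move across the edge by chance of sampling: a second draw of the thinning kept 78.6% of the WT and 68.6% of the cKO cells in the gate. Draws of 2000 UMIs share more UMIs in a shallow than in a deep cell. The median depths of the mitotic-gated cells were 6313 UMIs in WT and 12195.5 in cKO, so these 2 shares do not compare the libraries.

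**Figure D1:**
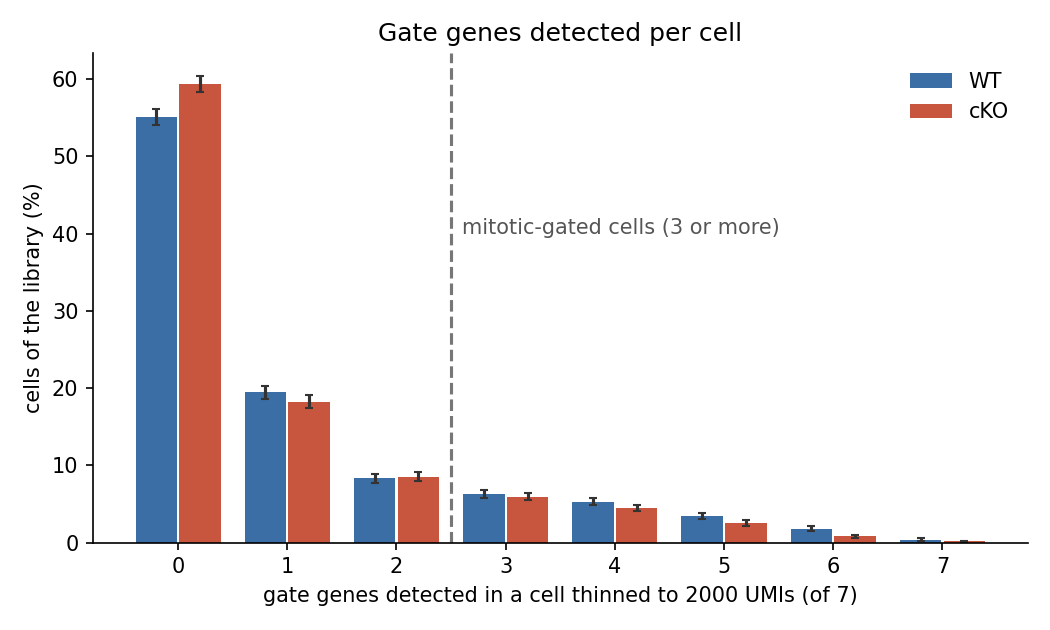
Share of cells (%) of the WT (blue) and cKO (red) library by the number of the 7 gate genes detected after thinning to 2000 UMIs, with 95% Clopper-Pearson intervals. The dashed line is the edge of the gate, and 17.1% of WT and 13.9% of cKO cells lie to its right.

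The gate genes themselves differed in how they filled the gate. Ube2c, the E2 enzyme of the APC/C, was detected in 72.2% of the WT and 76.8% of the cKO mitotic-gated cells and in 6.76% and 8.08% of the other cells. For Cenpa, the histone H3 variant of the centromere, these shares were 74.8% and 67.8% in the gate, against 785 of 7135 other WT cells and 9.44% of other cKO cells. Hmmr, a spindle assembly factor, was the least often detected, in 41.6% and 35.3% of the mitotic-gated cells. No cell type that should lack these mRNAs was defined here, so the share that free RNA contributes was not tested. CPM is the usual unit of a gene's share of all UMIs, here summed over the cells of a group. Within the gate, cKO over WT log2 ratios of CPM were positive for Ube2c (0.21, 0.17 to 0.25) and Cdc20 (0.15, 0.09 to 0.22), the APC/C activator. They were negative for the other 5 genes, the lowest being Cenpf (-0.47, -0.53 to -0.42), an outer kinetochore protein. The gate genes chose the cells, and the thinned UMIs used for that choice are part of these sums. Thinned UMIs make up more of a shallow than of a deep cell. The mitotic-gated cells had median depths of 6313 UMIs in WT and 12195.5 in cKO. The ratios of the gate genes therefore do not compare the libraries, and the part of the selection in them was not tested.

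Mitotic-gated cells held more mRNA molecules than the other cells of their library. The median was 6313 UMIs (quartiles 4905 and 8728.5) against 4012 in WT, and 12195.5 (quartiles 10192.5 and 15089) against 9995 in cKO, ratios of 1.57 and 1.22. Among WT cells with 3000 or more UMIs the ratio was 1.31. Genes detected per cell at 2000 UMIs were close, with medians of 997 and 990 in WT and 976 and 973 in cKO. The mitochondrial share was also close, 2.35% and 2.52% in WT and 1.91% and 1.86% in cKO.

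Outside the gate, the mRNAs of the mitotic machinery were higher in mitotic-gated than in other cells, by similar ratios in both libraries, and those of DNA replication were lower. Of 2858 WT genes at 50 CPM or more in either group of cells, 81 were at least 2-fold higher (2.83%) and 12 at least 2-fold lower (0.42%). In cKO, 61 of 2743 were higher (2.22%) and 14 lower (0.51%). Over the wider set of 3082 genes at 50 CPM or more in at least 1 of the 4 groups, which need not reach that level in both libraries (Aspm had 32.2 and 4.49 CPM in cKO), 75 were at least 2-fold higher in both libraries (2.43%), of which 51 stood on the mitotic lists, and 10 were at least 2-fold lower in both (0.324%), of which 8 stood on the DNA replication list. Gene lists below count members at 10 CPM or more, a level at which 1.97% of WT and 1.94% of cKO genes were at least 2-fold higher, 0.725% and 0.513% at least 2-fold lower, and the medians over all genes were -0.02 and -0.02 (log2).

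**Figure D2:**
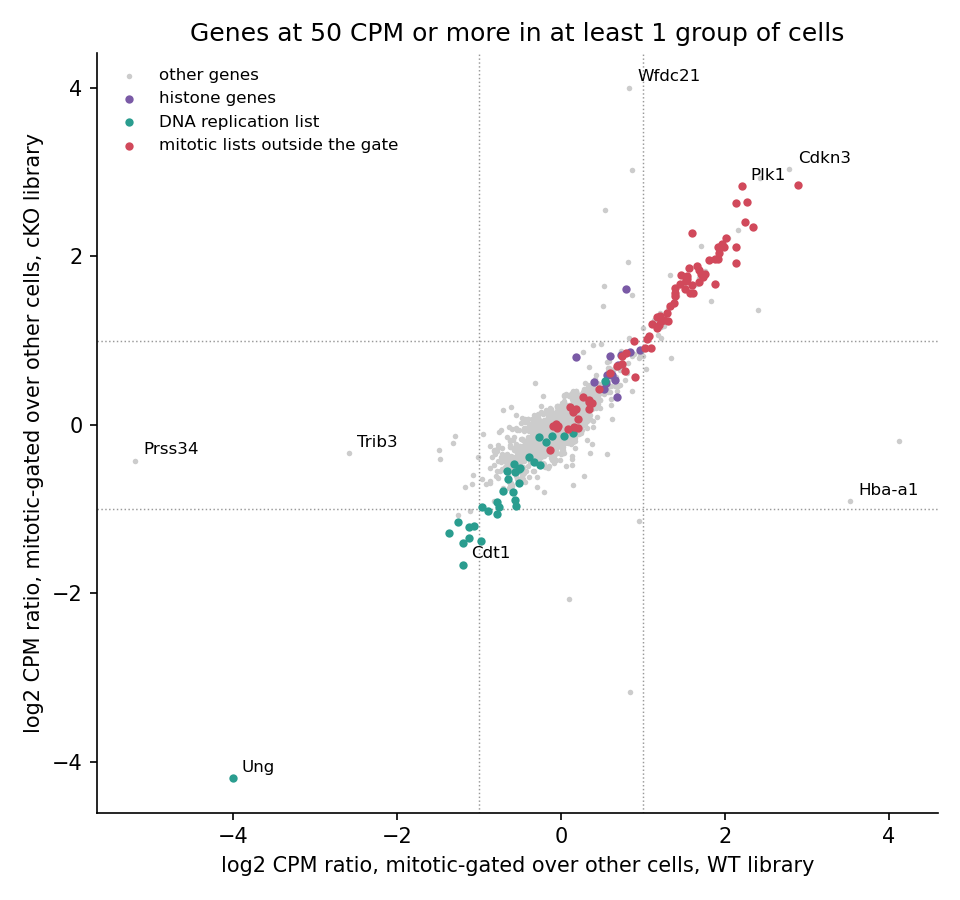
log2 CPM ratio of mitotic-gated over other cells in the WT library (x axis) and the cKO library (y axis), 1 point per gene outside the gate at 50 CPM or more in at least 1 group of cells, with dotted lines at 2-fold. Mitotic genes (red) lie along the diagonal up to Aspm at 2.90 and 2.84, beside Cdkn3 (grey, on no list), most DNA replication genes (green) lie below 0 down to Ung at -4.00 and -4.20, and Wfdc21, Prss34 and Hba-a1 lie off the diagonal.

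Mitotic kinases and cyclins had a median log2 ratio of 1.64 in WT and 1.82 in cKO, with 14 of 16 and 13 of 16 measured members past 2-fold, out of 18 listed. Plk1, the polo-like kinase that acts from mitotic entry to cytokinesis, stood at 129.5 CPM in mitotic-gated and 28.1 in other WT cells, and at 134 and 18.9 in cKO, a log2 ratio of 2.21 in WT and 2.83 in cKO. Aurka, the centrosomal Aurora kinase, stood at 166 CPM in mitotic-gated and 34.6 in other WT cells, and at 158 and 25.2 in cKO (2.27 and 2.64). Ccnb2, the second B-type cyclin, stood at 445 CPM in mitotic-gated and 87.6 in other WT cells, and at 311 and 61.1 in cKO (2.34 and 2.35). For all 3 genes both groups of mitotic-gated cells were above both groups of other cells. Cdk1, the kinase partner of cyclin B, was less confined to the gate, at 236 CPM in mitotic-gated and 90.0 in other WT cells, and at 253 and 86.0 in cKO (1.39 and 1.56). Cdkn3, a phosphatase that acts on cyclin-dependent kinases, was outside the lists and had the largest mean ratio over both libraries of the genes at 50 CPM or more (157 against 22.7 CPM in WT and 94.2 against 11.5 in cKO, log2 2.78 and 3.03).

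Spindle motors and microtubule factors had the highest median of the mitotic lists, 1.88 in WT and 1.961 in cKO, with 20 of 22 and 19 of 21 members past 2-fold. Aspm, which holds microtubule minus ends at the spindle pole, reached 2.90 and 2.84 (51.9 and 32.2 CPM in the mitotic-gated cells). Nusap1, which bundles spindle microtubules, stood at 459 CPM in mitotic-gated and 105 in other WT cells, and at 299 and 48.4 in cKO (2.13 and 2.63). Kif2c, the microtubule-depolymerizing kinesin at centromeres, reached 2.25 and 2.40, and Kpna2, an importin that binds spindle factors, 2.13 and 2.11. Knstrn, a kinetochore-associated spindle protein, was on no list and reached 2.03 and 2.22. The list also held Stmn1, a microtubule destabilizer that was abundant in all cells, at 2237 CPM in mitotic-gated and 1941 in other WT cells, and at 1256 and 1294 in cKO (0.20 and -0.04).

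All 10 cytokinesis genes were past 2-fold in each library, with medians of 1.58 in WT and 1.78 in cKO. Kif20a and Kif23, kinesins of the central spindle, stood at 2.13 and 1.88 in WT and 1.92 and 1.97 in cKO. The chromosomal passenger complex, separase and shugoshins had medians of 1.48 in WT and 1.55 in cKO, and 7 of 8 members passed 2-fold in each library. Birc5 (survivin) had 546 against 181 CPM in WT and 408 against 129.5 in cKO. The kinetochore and spindle checkpoint list divided, with 15 of 30 WT and 13 of 28 cKO members past 2-fold and medians of 0.98 in WT and 0.95 in cKO. Cenpe, the kinetochore motor, reached 2.01 and 2.22, whereas Cenph, of the constitutive inner kinetochore, stood at 0.16 and -0.03. Chromosome condensation genes had medians of 1.11 in WT and 1.11 in cKO, among them Top2a, the topoisomerase that untangles sister chromatids (1.29 and 1.33), and Mki67, which coats mitotic chromosomes (1.57 and 1.56).

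Among APC/C genes, a few regulators were higher in mitotic-gated cells and core subunits stayed near 0. The list had medians of 0.34 in WT and 0.19 in cKO with 3 of 17 members past 2-fold in each library: the regulators Cdca3, Fzr1 and Ube2s, at 1.54, 1.39 and 1.19 in WT and 1.77, 1.62 and 1.18 in cKO. Core subunits such as Anapc5 (0.08 and -0.05) and Cdc16 (-0.10 and -0.02) were among the latter. Of the 14 G2/M transcription regulators, which include the MuvB and NF-Y subunits and Foxm1, 11 were measured in each library, with medians of 0.14 in WT and 0.11 in cKO, 1 past 2-fold higher in each library and 1 past 2-fold lower in cKO.

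Genes for DNA replication had medians of -0.59 in WT and -0.67 in cKO, with 13 of 51 WT and 16 of 51 cKO members past 2-fold lower and 0 past 2-fold higher. Ung, the uracil-DNA glycosylase that is made around the G1/S border, had the lowest ratio of the list in both libraries, at 3.12 CPM in mitotic-gated and 50.7 in other WT cells, and at 3.37 and 62.2 in cKO (-4.00, -4.56 to -3.53 in WT and -4.20, -4.62 to -3.83 in cKO). Only 34 and 55 UMIs of it were counted in the mitotic-gated cells. Cdt1, the licensing factor degraded in S phase, stood at -1.20 and -1.66, Mcm2 of the replicative helicase at -1.37 and -1.28, and Mcm6 at -1.20 and -1.40. Pcna, the sliding clamp, had 99.0 against 215 CPM in WT and 95.6 against 222 in cKO. Asf1b, a histone chaperone, had one of the few positive ratios of the list (0.53 and 0.52).

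Replication-dependent histone mRNAs behaved unlike the replication enzymes. Their summed level was 5677 CPM in mitotic-gated and 3697 in other WT cells and 2113 and 1324 CPM in cKO, and the medians over the measured genes were 0.69 in WT and 0.63 in cKO. Many histone genes are near-identical copies between which reads may be split, and these mRNAs mostly lack the poly-A tail that the assay captures, so the values of single histone genes are uncertain.

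The level of the mitotic genes outside the gate was higher with each further gate gene detected. These genes took 17.2 (17.1 to 17.3) of each 2000 UMIs in WT cells with 0 gate genes, 40.1 with 2, 46.7 with 3 and 61.8 (59.1 to 64.5) in the 33 cells with all 7. In cKO the values were 15.6 (15.5 to 15.8), 32.6, 37.5 and 52.9 (49.1 to 56.8), the last in 14 cells. The WT value was above the cKO value at each number of gate genes. Abundant genes weigh most in these sums, such as Stmn1 and Hmgb2 (3087 CPM in WT and 2326 in cKO mitotic-gated cells). Plk1 (129.5 and 134 CPM) and Cdk1 (236 and 253) were not lower in cKO mitotic-gated cells, so the order of the sums does not hold for each gene. DNA replication genes stood highest with 1 gate gene, at 8.42 in WT and 9.04 in cKO, and lowest with 7, at 4.30 (3.62 to 5.07) and 3.79 (2.84 to 4.95). Histone mRNAs reached 12.8 in WT and 4.70 in cKO with 2 gate genes, just outside the gate, against 4.45 and 1.83 with none, and stood at 10.6 and 4.86 with 7. Immediate early and NF-kB response genes went from 18.5 with 0 gate genes to 9.78 with 3 in WT, and from 4.34 to 3.06 in cKO. From 3 gate genes on they varied without order, between 9.03 and 12.2 in WT and between 2.67 and 4 in cKO. Depth before thinning also differed with the number of gate genes. The median was 3680 UMIs with 0, 6410 with 2, 6579 with 3 and 5751 with 7 gate genes in WT, and 9426, 12180, 12143.5 and 10985.5 in cKO, and its part in these levels beyond the thinning was not tested.

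**Figure D3:**
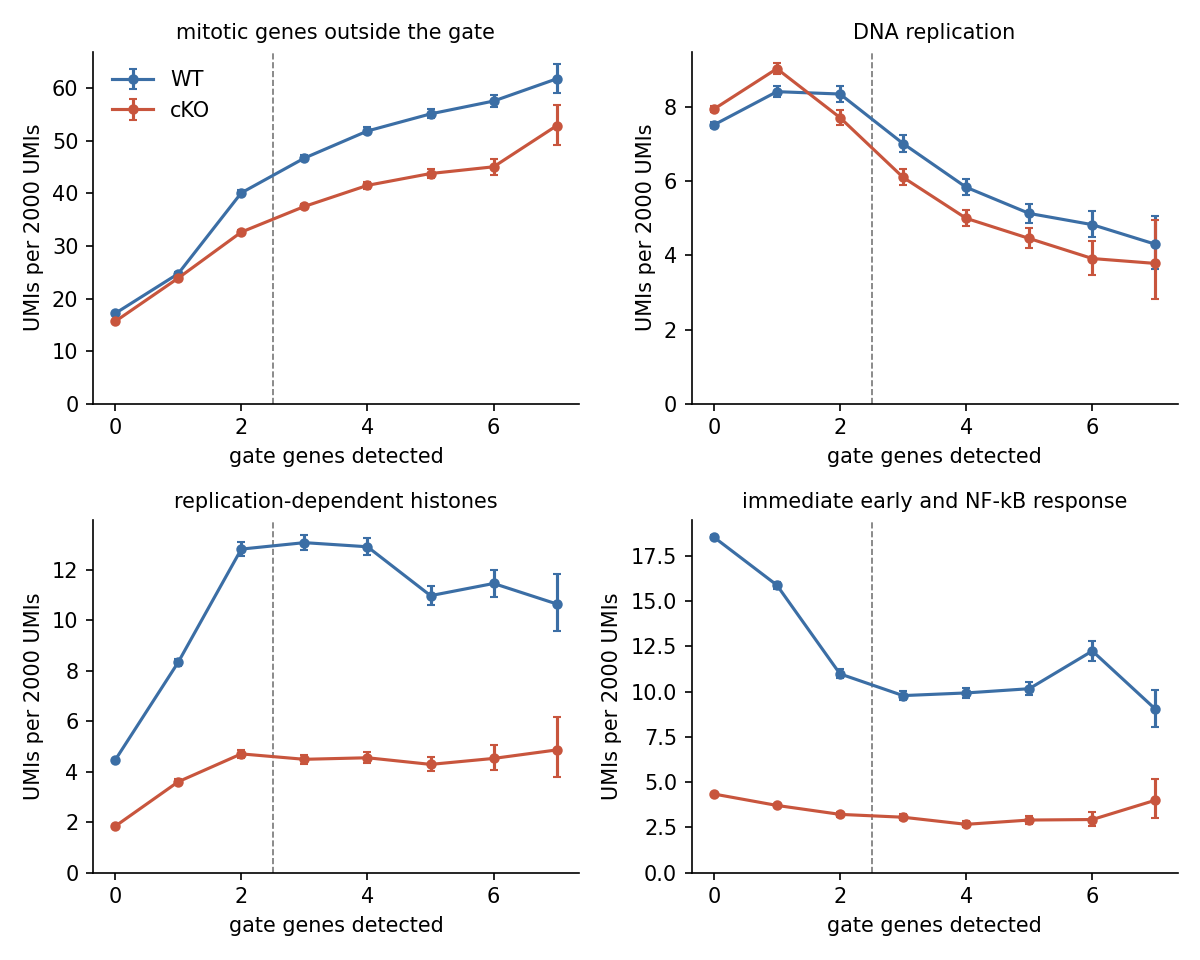
UMIs of 4 gene lists per 2000 UMIs (y axes, from 0) by the number of gate genes detected (x axes) in WT (blue) and cKO (red) cells, with 95% Poisson intervals and the gate edge as a dashed line. Mitotic genes outside the gate climb from 17.2 to 61.8 in WT and from 15.6 to 52.9 in cKO, while DNA replication genes decline past 1 gate gene.

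Among the other pathways, the immediate early and NF-kB response genes had medians of -0.60 in WT and -0.47 in cKO in mitotic-gated over other cells, with 0 members past 2-fold. Cell type markers moved with these ratios. In WT, HSC markers were lower in 7 of 7 measured genes (median -0.77, 2 past 2-fold), GMP markers higher in 9 of 10 (0.51) and neutrophil markers higher in 8 of 8 (0.85), and the HSC gate held 1.02% of mitotic-gated and 4.61% of other cells. In cKO the HSC median was -0.19 and the HSC gate held 6.32% and 7.34%. The cKO GMP markers were higher in 5 of 6 measured genes (median 0.64). The 1 past 2-fold was Elane (2.55), with 991 of its 2205 UMIs in 1 mitotic-gated cell. Of the neutrophil markers 0 were measured in cKO. The GMP and neutrophil ratios rest on summed UMIs. After thinning, the neutrophil marker S100a8 was detected in 13.6% (11.9 to 15.5) of mitotic-gated and 18.4% (17.5 to 19.3) of other WT cells. The GMP marker Elane was detected in 27.0% and 28.0%. The GMP marker Mpo, at 62.2% and 59.0%, and the neutrophil gate, at 2.31% and 1.88%, went the other way. The part of cell type markers in the differences between mitotic-gated and other cells was not tested. Jun, an AP-1 subunit, stood at 981 CPM in mitotic-gated and 1619 in other WT cells, and at 106 and 153 in cKO (-0.72 and -0.53). MYC targets and ribosome biogenesis genes had medians of -0.25 in WT and -0.21 in cKO and were lower in 26 of 29 WT and 29 of 29 cKO members. Ccnd2, the G1 cyclin, had 151 against 242 CPM in WT and 260.2 against 354 in cKO. The other pathway lists had medians between -0.17 and 0.01: ATF4 targets (-0.05 in WT and -0.07 in cKO), the p53 response (-0.17 in WT and -0.02 in cKO), the interferon response (-0.09 in WT and -0.11 in cKO) and mTORC1 regulators (0.01 in WT and -0.02 in cKO), besides the G1 list (-0.10 in WT and -0.08 in cKO) and the m1A genes, at -0.27 and -0.09. Of the 10 mTORC1 regulators listed, 4 were measured in each library.

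Mitotic-gated cells were found in every marker gate that held 50 or more cells in both libraries. Cells were placed in marker gates, a cell counting for a type when at least 3 of that type's markers were detected at 2000 UMIs, and a cell could fall in several gates or in none. Of the other WT cells, 18.4% had S100a8 detected at this depth, while 1.88% fell in the neutrophil gate. The part of free RNA in marker detection was not tested, so the gates are descriptions of detected mRNAs. The GMP gate (granulocyte-monocyte progenitor markers such as Mpo and Elane) held 47.5% of the WT but 3.48% of the cKO mitotic-gated cells, and 46.2% and 3.98% of the other cells. Of the mitotic-gated cells, 37.6% in WT and 83.6% in cKO fell in no gate. In the GMP gate, 700 of 3994 cells, 17.5% (16.4 to 18.7), were mitotic-gated in WT and 44 of 356 cells, 12.4% (9.13 to 16.2), in cKO (-5.17 percentage points, -8.78 to -1.55). The LMPP gate (lymphoid-primed progenitor markers such as Flt3 and Dntt) gave 210 of 1423 cells, 14.8%, and 30 of 271 cells, 11.1% (-3.69 percentage points, -7.85 to 0.478). The dendritic cell or monocyte gate gave 156 of 777 cells, 20.1%, and 27 of 313 cells, 8.63% (-11.5 percentage points, -15.6 to -7.25). In the erythroid gate the shares were 12 of 68 cells, 17.6%, and 19 of 104 cells, 18.3%, and in cells of no gate 17.5% and 14.3%.

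The HSC gate, with stem cell markers such as Procr, Mecom and Hlf, had the lowest WT share of the gates with over 50 cells, 15 of 344 cells, 4.36% (2.46 to 7.09), against 80 of 655 cells, 12.2% (9.80 to 15.0) in cKO. The difference of 7.85 percentage points, 4.54 to 11.2, was opposite in sign to that over all cells. It was 8.20 percentage points, 4.06 to 12.3, without the marker Ly6a, the gene of the Sca-1 antigen used in the sort, and 7.51 points without likely doublets. It did not hold at the deeper thinning. At 3000 UMIs, where 49 of 341 WT and 209 of 1326 cKO cells of the gate were mitotic-gated, it was 1.39, -2.82 to 5.60 points. The cells of the gate had median depths of 2964.5 UMIs in WT and 7237 in cKO.

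**Figure D4:**
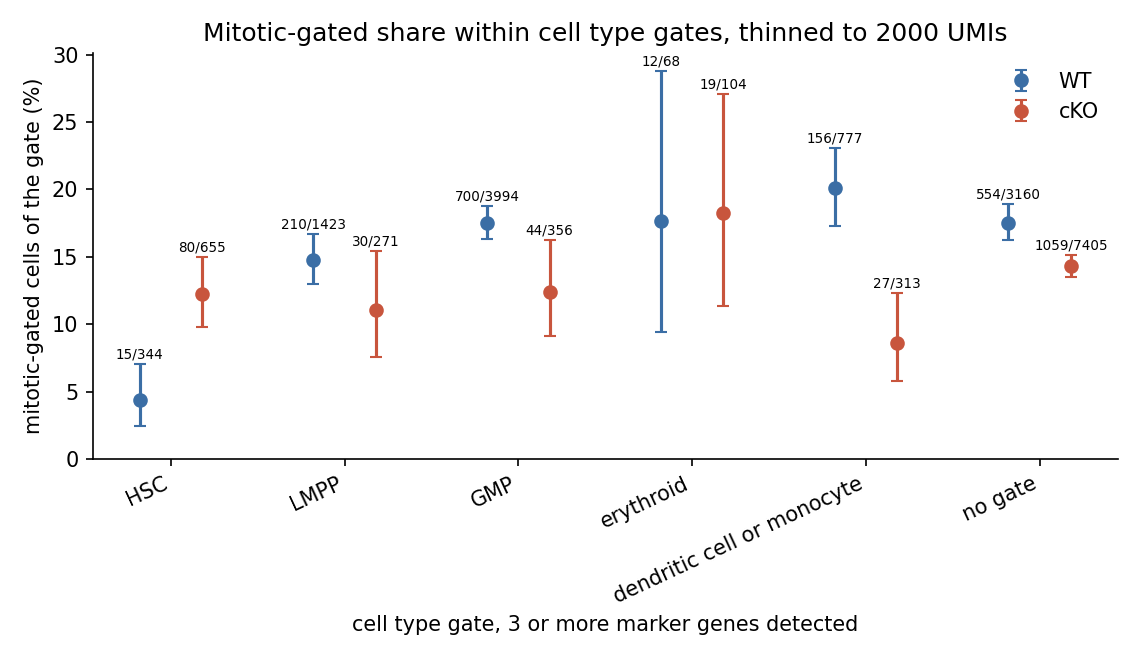
Share of mitotic-gated cells (%) within each marker gate that held 50 or more cells in both libraries, and in cells of no gate, for WT (blue) and cKO (red) at 2000 UMIs, with 95% Clopper-Pearson intervals and the number of mitotic-gated over all cells above each point. The cKO share is 12.2% against 4.36% in the HSC gate and lies below the WT share in the LMPP, GMP and dendritic cell or monocyte gates.

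Trmt6 mRNA was compared between the libraries as a check of the genotype. In mitotic-gated cells it stood at 55.2 CPM in WT (602 UMIs) and 51.6 in cKO (844 UMIs), a log2 ratio of -0.10, -0.25 to 0.06, and in other cells at 66.6 and 50.4 CPM (-0.40, -0.48 to -0.33). The counts are 3′ reads and do not show whether the floxed exons were lost. Under a second draw of the thinning the ratio in mitotic-gated cells was -0.21, and with thinned UMIs as the level 0.32. Trmt61a, the catalytic partner, stood at 12.7 and 27.7 CPM in mitotic-gated cells (1.13, 0.85 to 1.42), and Tsc1, an inhibitor of mTORC1, at 5.69 and 3.98 CPM (-0.52, -1.04 to 0.01).

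Between the libraries, mitotic-gated cKO cells had less of the granulocyte and histone mRNAs and more of the amino acid response mRNAs than mitotic-gated WT cells, and the mitotic machinery differed by less than 2-fold. Of 2917 genes at 50 CPM or more, 73 were at least 2-fold higher in cKO (2.5%) and 137 at least 2-fold lower (4.7%), against 2.46% and 4.38% in the other cells. At 10 CPM or more, the level used for the lists, the shares in mitotic-gated cells were 2.91% and 5.13%, those in other cells 2.55% and 4.78%, and the median over all genes was -0.05.

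**Figure D5:**
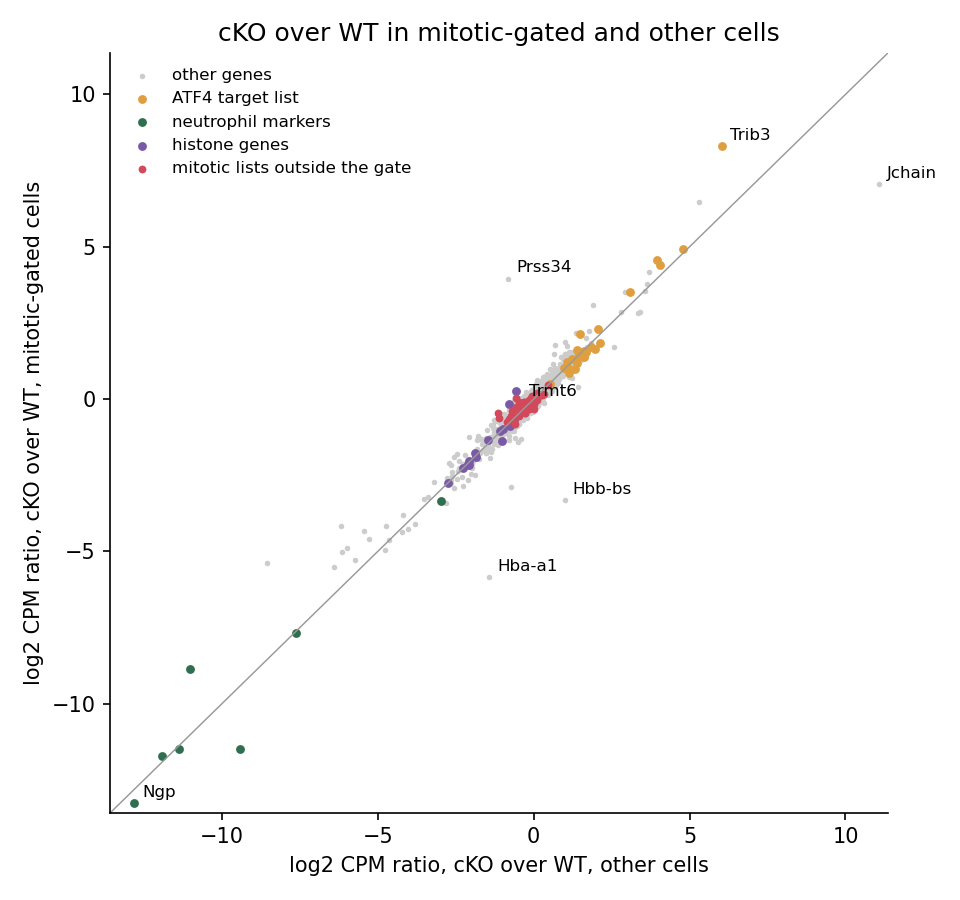
log2 CPM ratio of cKO over WT in other cells (x axis) and in mitotic-gated cells (y axis), 1 point per gene outside the gate at 50 CPM or more in at least 1 group of cells, with the line of equal ratios. Points include 0.5 prior counts, so that genes with 0 or few UMIs in a group have no exact place. Most genes lie near the line, Trib3 at 8.31 and the neutrophil markers at the ends, and Prss34, Hba-a1, Hbb-bs and Jchain lie off it.

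Of the mitotic lists, all had negative median cKO over WT ratios in mitotic-gated cells, from -0.39 for cytokinesis to -0.11 for kinases and cyclins, and 0 of their measured members passed 2-fold. Scaled by the TMM factor the median of all genes at 50 CPM moved from -0.01 to 0.06, and over a total without mitochondrial and ribosomal protein genes to 0.11, under which the kinase median was 0.01 and the cytokinesis median -0.27. Within the lists the genes differed. Plk1 (0.05, -0.05 to 0.15) and Aurka (-0.08, -0.17 to 0.01) had intervals that included 0, Cdk1 stood at 0.10, 0.03 to 0.17, and Ccnb2 at -0.52, -0.57 to -0.46. Nusap1 (-0.62), Mki67 (-0.56), Kif23 (-0.75) and Cdkn3 (-0.73) were lower in cKO, as was Fam64a, a mitotic regulator (-0.86). Replication genes had a median of -0.16 in mitotic-gated cells and 0.01 in other cells.

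Histone mRNAs were lower in cKO mitotic-gated cells. Over all 68 genes the sum was 5677 CPM in WT and 2113 in cKO. Of these, 45 reached 10 CPM in either library, 34 of them were at least 2-fold lower, and 1 was higher. Hist1h2ap, whose reads may be split with near-identical copies, stood at 2309 CPM in mitotic-gated and 1507 in other WT cells, and at 531 and 351 in cKO (-2.12, -2.16 to -2.09 in mitotic-gated cells). Hist3h2a was the higher one, at 68.5 and 81.7 CPM (0.25, 0.12 to 0.38), whereas in other cells it was lower (-0.57).

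ATF4 targets and genes of amino acid supply, which respond to uncharged tRNA and endoplasmic reticulum stress, were higher in cKO mitotic-gated cells, with a median log2 ratio of 1.59 and 29 of 32 measured members past 2-fold, out of 35 listed. In the other cells the median was 1.62, also with 29 of 32 past 2-fold. Trib3, a pseudokinase that restrains ATF4, had the largest ratio of the list's genes at 50 CPM, 0.367 CPM in WT (from 4 UMIs) and 131 in cKO (8.31, 7.12 to 10.35). Asns, asparagine synthetase, stood at 8.90 CPM in mitotic-gated and 11.8 in other WT cells, and at 190.4 and 197 in cKO (4.41, 4.13 to 4.73). Mthfd2, of mitochondrial one-carbon metabolism, had 18.7 and 215 CPM (3.52), Atf5, a transcription factor of this response, 2.57 and 79.9 (4.93), and Nupr1, a stress-induced chromatin protein, 10.5 and 248 (4.56). For each of these genes both cKO groups were far above both WT groups.

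Other genes with large cKO over WT ratios in mitotic-gated cells were Socs2, an inhibitor of cytokine receptor signalling (0.917 and 84.6 CPM, 6.46), the GTPase gene Gem (4.17), Angptl6 (3.56) and Phlda3, a p53 target that restrains AKT (5.05 and 57.9 CPM, 3.51). Of 6 measured p53 response genes 4 passed 2-fold higher, including the pro-apoptotic Bax (124 and 322 CPM, 1.37, 1.29 to 1.46), and the list's median was 1.45. Jchain, the joining chain of secreted antibodies, had a ratio of 7.05, and 1 cell held 724 of its 896 UMIs in the cKO mitotic-gated cells. For MYC targets and ribosome biogenesis genes the median was 0.51, with 1 of 30 past 2-fold in each direction. The interferon list had a median of 0.12, mTORC1 regulators -0.05 and the m1A genes 0.28. Of the 10 mTORC1 regulators listed only 4 were measured, with ratios from -0.44 to 0.25. G1 cyclins, CDK inhibitors and pocket proteins divided, with 3 of 17 past 2-fold higher and 5 past 2-fold lower, a range from -2.35 to 2.75 and a median of -0.30. Lower were the antiproliferative genes Btg1 (81.3 and 32.6 CPM, -1.32) and Btg2 (92.2 and 18.1 CPM, -2.35) and the G1 kinase Cdk6 (514 and 210.1 CPM, -1.29).

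Immediate early and NF-kB response genes were lower in cKO mitotic-gated cells, with 14 of 24 past 2-fold and a median of -1.22. Fos had 329.6 and 52.6 CPM (-2.65, -2.76 to -2.54), and Jun 981 and 106 CPM (-3.20, -3.28 to -3.13).

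Markers of other cell types moved with genotype in the mitotic-gated cells. The 10 neutrophil markers summed to 8892 CPM in WT and 17.3 in cKO mitotic-gated cells, and to 4852 and 8.26 in other cells, with 4 of them at 0 UMIs in the cKO mitotic-gated cells. In WT, 34 of the 1475 mitotic-gated cells (2.31%) fell in the neutrophil gate, and some of these mRNAs came from few cells, Chil3 from 41, Ltf from 44 and Wfdc21 from 45, with 144 of 1030 Ltf UMIs in 1 cell. S100a8 was detected in 490 cells. S100a8 and S100a9, the calprotectin subunits, stood at 3972 and 1990.3 CPM in WT and 8.57 and 0.673 in cKO, where 1 cell held 106 of the 140 S100a8 UMIs. Granule and related genes Ngp (1516 and 0.122 CPM), Camp (1138 and 0.306) and Ltf (94.5 and 0.428) followed. Chil3, a chitinase-like protein, gave 955 WT UMIs but 0 from cKO, so with 3 counts as the upper limit its log2 ratio was at most -8.90. Wfdc21, Wfdc17 and F13a1 stood at -5.36, -5.27 and -5.51. The 10 GMP markers summed to 8978 CPM in WT and 1171 in cKO and the LMPP markers to 823 and 266, while the 12 HSC markers summed to 157 and 416 CPM, with none of these lists' genes at 0. Ly6a, whose product was used to sort the cells, stood at 13.9 CPM in mitotic-gated and 39.3 in other WT cells, and at 118 and 145 in cKO (cKO over WT in mitotic-gated cells 3.08, 2.84 to 3.33).

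Of the remaining marker lists, given for WT and then cKO mitotic-gated cells, erythroid markers summed to 808 and 1078 CPM (although 4 of 6 measured genes were lower in cKO, 3 past 2-fold, with a median log2 ratio of -1.01), megakaryocyte markers to 159.5 and 68.1, dendritic cell or monocyte markers to 1317 and 734, mast cell or basophil markers to 176 and 58.3, B cell markers to 79.5 and 85.5, and T or NK cell markers to 18.3 and 4.47. Among the 3 erythroid genes past 2-fold were Hba-a1 (-5.85) and Hbb-bs (-3.32). For these, 1 WT mitotic-gated cell held 617 of 636 and 590 of 603 UMIs, so the erythroid count and median rest in part on single cells. At 0 UMIs stood 5 WT and 2 cKO T or NK cell markers, 2 cKO dendritic cell or monocyte markers, and 1 marker in each library of the megakaryocyte, mast cell or basophil and B cell lists. When cells in the GMP, neutrophil and mast cell or basophil gates were left out, the histone median was -1.74, the ATF4 median 1.79, the immediate early median -1.59 and the mitotic medians between -0.57 for spindle factors and -0.25 for kinases and cyclins and for APC/C. The GMP marker median moved from -3.91 to -1.90, the HSC median from 1.60 to 1.02, the megakaryocyte median from -1.20 to -2.17 and the erythroid median from -1.01 to -2.06. Of the smaller medians, that of the interferon list turned from 0.12 to -0.21 and that of the B cell markers from 0.70 to -0.27. The remaining part of the cell mix in these ratios was not tested.

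The cKO over WT ratio was mostly alike in mitotic-gated and other cells. The difference of the log2 ratios was 1 or more in 11 of 3082 genes (0.357%) and -1 or less in 6 (0.195%). Several of these rest on single cells. Prss34, a mast cell and basophil protease, had a difference of 4.77, 4.05 to 5.48, but 1 cell held 373 of its 383 UMIs in cKO mitotic-gated cells, and without the top cell of each group the difference was -0.23. For the globins Hba-a1 (-4.43) and Hbb-bs (-4.31), 1 WT mitotic-gated cell held 617 of 636 and 590 of 603 UMIs. S100a8 (2.16), Elane, neutrophil elastase (2.02), and Wfdc21 (3.18) also rested on few cKO cells, with 991 of 2205 Elane and 24 of 46 Wfdc21 UMIs in 1 cell. Trib3 differed by 2.26, 0.89 to 3.63, on 4 UMIs in WT mitotic-gated cells. Jchain (-4.01), Slpi (-2.16) and Chil3, with 0 UMIs in cKO mitotic-gated cells, had lower ratios in mitotic-gated cells.

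Of genes spread over many cells, Psrc1, a microtubule regulator and p53 target singled out after its values were seen, stood at 69.3 CPM in mitotic-gated and 13.1 in other WT cells, and at 90.3 and 35.3 in cKO, so that mitotic-gated over other cells was 2.40, 2.23 to 2.57 in WT and 1.36, 1.27 to 1.45 in cKO. The difference was -1.04, -1.23 to -0.85, and -1.27 with thinned UMIs as the level. Plk1 went the other way (0.62, 0.47 to 0.77), since its level outside the gate was lower in cKO while its level inside was not, but with thinned UMIs as the level its difference was 0.21. Nusap1 (0.49), Fam64a (0.50) and Aurka (0.38) had differences of the same sign as Plk1. HSC markers had positive differences in all 8 measured genes, 2 of them past 1, against 0.356% of all genes at 10 CPM or more (0.224% at -1 or less). Mecom, a stem cell transcription factor, stood at 15.9 CPM in mitotic-gated and 26.0 in other WT cells, and at 58.8 and 52.0 in cKO (0.89, 0.63 to 1.14), and the mitotic lists had median differences between -0.01 and 0.14 except APC/C (-0.06) and the G2/M regulators (-0.08).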

How the data were processed

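mRNA of single LSK cells was counted in 2 libraries, 1 WT and 1 cKO by their labels. The deposited values are raw UMI counts per gene and barcode from the authors' run of Cell Ranger 6.0.0 on GRCm38 (mm10), by the submitters' processing notes and the study's methods. The labels and the methods name different versions of the 3′ reagent kit. Whether intronic reads were counted is not given in the sources used here.

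Barcodes with more than 200 genes, under 10% mitochondrial UMIs and 2000 or more UMIs were kept, and each was thinned without replacement to 2000 UMIs. Levels are CPM of all UMIs summed over the cells of a group. Genes are compared between groups of cells and not with each other, since 3′ counts are not per length. log2 ratios carry 0.5 prior counts and conditional binomial intervals, levels carry exact Poisson and shares Clopper-Pearson intervals (scipy 1.17.1), and differences of ratios or shares a normal approximation, all at 95%. Sums give each deep cell more weight than a shallow cell. With 1 library per group there was no test, and 2-fold stands for a log2 ratio of 1 or more in size. Likely doublets were the barcodes with the largest share of simulated doublets among their 50 nearest neighbours, at 0.8% per 1000 barcodes.

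Named genes outside the gate had 50 CPM or more in a group compared: the 12 highest and 6 lowest mean ratios over the rest, the 10 highest and 10 lowest cKO over WT ratios, the 5 highest and 5 lowest differences of these ratios, up to 3 genes per list and comparison, and 11 fixed genes. A gene named for one comparison may be given in the others. Psrc1, Ly6a, Birc5, Jun and Fos were chosen after their values were seen. The gate, the members and the gene lists were chosen with earlier results of these data known. Alternatives on the HSC gate, on the top cell of a gene and on cells of 3000 or more UMIs were added after seeing the data. TMM and median-of-ratios scaling served as alternatives, the first from edgeR 4.0.16. The ratios and their intervals were tested on simulated Poisson counts with known changes, the same counting model that the intervals assume. The thinning, the gates, the doublet scores, the motif matches and the spread between cells were not part of that simulation.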

Additional observations from a re-analysis of the deposited data

Results flagged for a closer look

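Some results took opposite directions in the groups compared, and the differences between the groups were not tested across samples. The mitotic-gated share was higher in cKO in the HSC gate (7.85 points, and 8.20 points without Ly6a) and lower over all cells (-3.22 points). The HSC gate difference was 1.39, -2.82 to 5.60 points at 3000 UMIs and 5.80, 2.41 to 9.19 points in another draw of the thinning.

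Prss34 had a cKO over WT log2 ratio of 3.95 in mitotic-gated and -0.81 in other cells, with 373 of 383 cKO UMIs in 1 mitotic-gated cell. Hbb-bs stood at -3.32 and 0.99, with 590 of 603 WT UMIs in 1 mitotic-gated cell. Hba-a1 was 3.52 in mitotic-gated over other cells in WT and -0.90 in cKO, with 617 of 636 WT UMIs in 1 cell. Cdk1 was 0.10 in mitotic-gated and -0.07 in other cells, by summed UMIs. After thinning, Cdk1 was detected in 36.1% of WT and 37.2% of cKO mitotic-gated cells. In other cells it was detected in 10.9% (10.2 to 11.7) in WT and 12.8% (12.1 to 13.6) in cKO. The opposite directions of Cdk1 were thus not seen in its detection.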

How the results depend on the processing

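Settings were changed 1 at a time. No paired analysis was possible because each group has 1 library, and no replicate could be left out. Requiring at least 2 gate genes gave mitotic-gated shares of 25.5% in WT and 22.4% in cKO, and at least 4 gave 10.8% and 7.95%. Thinning to 3000 UMIs gave 27.7% and 19.0%, a difference of -8.70 points, and no thinning gave 31.1% and 38.1%, a difference of 6.98 points in the opposite direction, at unequal depth. In the HSC gate 3000 UMIs gave 14.4% in WT, 15.8% in cKO and a difference of 1.39 points. Among cells with 3000 or more UMIs, the WT ratio of medians between mitotic-gated and other cells was 1.31 for UMIs, 1.19 for genes and 0.977 for the mitochondrial share.

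Minimum levels of 10 and 100 CPM gave 144 and 46 genes at least 2-fold higher and 53 and 7 lower in WT mitotic-gated over other cells, 136 and 37 higher and 36 and 8 lower in cKO, and 212 and 38 higher and 374 and 70 lower for cKO over WT. A gate of at least 2 genes left 6 lower genes in cKO. Prss34 turned to 2.13 in WT mitotic-gated over other cells under that gate, and Wfdc21 to -5.14 in cKO at 3000 UMIs. Without the top cell of each group the differences of Prss34 and Hbb-bs turned to -0.23 and 0.63. Under the study's cell limits the erythroid median of cKO over WT turned from -1.01 to 0.031. The cause was not tested for any of these. Of the other values for single genes and lists, 1757 stayed within their counting interval and 384 moved by more. Medians over all genes, counted among these, were judged by a fixed limit instead. No main value past 2-fold changed direction among the 384, but smaller ones could. Prss34 in cKO mitotic-gated over other cells went from -0.43 to 2.01 under the gate of at least 2 genes. The depth of the WT library, below that of cKO by a ratio of 1.93 in the medians of mitotic-gated cells, limits genes with few UMIs there.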
